A study of Mus musculus with 6 samples.

Results

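The 33 genes described here are interferon response genes, chosen as a list of gene symbols known from the interferon pathway and not by a threshold on measured values. All 33 were found among the 23366 genes of the deposited table, and 30 of them were among the 12820 genes tested, those whose normalized counts averaged at least 10. The 3 members under that level were Oas1a, Oas2 and Oas3. RNA sequencing was run on SC4 cells, a single mouse line of Schwann cells, the cells that sheathe peripheral nerves, taken from a schwannoma without Nf2, which encodes the tumour suppressor merlin. The control group was transfected with a control siRNA, and the other with pooled siRNAs that target Yap1, the gene for YAP, which is a co-activator of transcription under Hippo pathway control. RNA was taken 48 hours after transfection. Both groups carry the Nf2 loss and went through the same lipid transfection, and no untransfected cells are part of the comparison.

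Interferons are secreted proteins that cells make when sensors detect foreign or misplaced nucleic acid. They bind receptors whose JAK kinases phosphorylate STAT2 among other proteins, and a complex that contains STAT2 and IRF9 then binds interferon-stimulated response elements in the promoters of a large set of genes. Many of the proteins so induced block steps of virus replication, and others raise or damp the response itself. Schwann cells, like most cell types, carry this pathway, and transfected RNA is known as one of its inducers.

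Each group held 3 libraries, numbered 1 to 3, with between 18025132 and 60078880 reads in genes. Values are normalized counts, that is, reads divided by a size factor for the library, and 1 read was worth between 0.461 and 1.52 of them. Whether the libraries of a group are separate cultures is not in the labels, so the p-values reflect no more than the scatter among these 6 libraries, and that scatter may be technical. In bulk RNA, fewer cells of a type and less RNA per cell cannot be told apart. Yap1, the target of the siRNA pool, had 4749.6, 5732 and 4751 normalized counts in control replicates 1, 2 and 3 and 936, 571 and 475 after YAP siRNA. Replicate 1 of both groups stood apart from replicates 2 and 3, over all genes and in the interferon response genes: the chi-square of counts per degree of freedom was 136 to 267 between replicate 1 and another library of its group, and 34.5 and 8.04 between replicates 2 and 3. The members' share in this is described next. Libraries with the same number shifted together in both groups, but replicates 2 and 3 did so across numbers as well. Results are therefore given from limma with the replicate number as a block, beside the fit without it, and with and without replicate 1.

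Replicate 1 held the lowest value of its group for all 30 tested members, in the controls and again after YAP siRNA. Over all tested genes the corresponding share was 45.3% in each group, and over the other tested interferon pathway genes described further on it was 63.7% in the controls and 65.7% after YAP siRNA. In the controls the median member was lower by 2.13 on the log2 scale in replicate 1 than in the mean of replicates 2 and 3, where the median over all tested genes was −0.0033. After YAP siRNA the median member was lower by 1.28, and the median over all genes was −0.015. The gap was wide for some members and narrow for others. Ifi44 was 55.1-fold and Xaf1 18.4-fold higher in the mean of control replicates 2 and 3 than in control replicate 1, whereas Ifit2 was 1.16-fold and Irf1 1.20-fold higher. The sum over the list of macrophage and leukocyte markers ranged from 287 to 357 normalized counts in the controls. After YAP siRNA it ranged from 221 to 316. For the 5 tested genes of that list the median log2 difference, replicate 1 minus the mean of replicates 2 and 3, was −1.74 in the controls. It was −1.58 after YAP siRNA. Replicate 1 was lowest for 4 of the 5 in the controls and for 3 after YAP siRNA. The part of these markers in the difference between replicates was not tested.

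**Figure D1:**
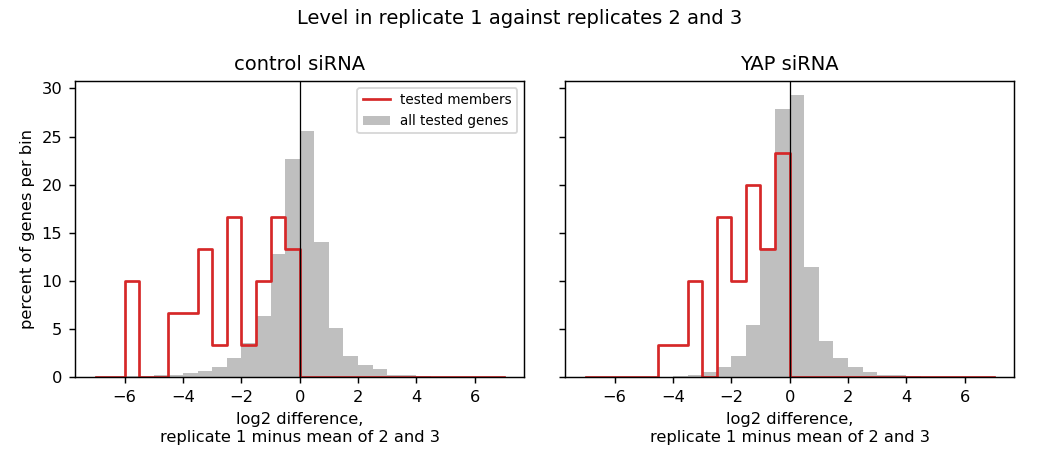
Log2 difference between replicate 1 and the mean of replicates 2 and 3 of the same group, as the percent of genes per bin. Bars show all tested genes and the stepped line the 30 tested interferon response genes, with the controls and the YAP siRNA libraries in separate panels. All members lie below 0 in both panels, with medians of −2.13 and −1.28, while the genes as a whole are centred near 0.

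The promoters of the members were also searched for the element bound by the complex that contains STAT2 and IRF9. The members were listed as interferon response genes, so a share above that of all genes comes with the choice of list. The relation of the element to the levels in replicate 1 was not tested. RefSeq start windows, 250 bases before to 50 after a start, were matched for 26 of the 33 members in build GRCm38.p6. The core GAAA, any 2 bases, GAAA, read on both strands and allowed to overlap itself, was found in a window of 13 of these members, or 50%, against 3.99% of the 27025 genes with a window. The longer form, the core followed directly by CT, was found in 6 members, or 23.1%, against 0.303%. A match is a description of letters and not a measured binding site. The genes chosen for display were, like every tested member, lowest in replicate 1 of both groups. The windows below are shown for 2 guanylate-binding protein genes, of which Gbp2 rose and Gbp3 did not pass, and for Ifit1, Isg15 and Bst2. They lie at chr3:142620594-142620623 (plus strand, Gbp2), chr3:142559992-142560021 (plus, Gbp3), chr19:34640785-34640814 (plus, Ifit1), chr4:156200871-156200900 (minus, Isg15) and chr8:71537580-71537609 (minus, Bst2), all upstream of the start. Each is written 5′ to 3′ on the strand of its gene, and capitals mark the bases covered by the core, which reads TTTC in place of GAAA where it lies on the opposite strand.
Gbp2: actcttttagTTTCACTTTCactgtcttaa
Gbp3: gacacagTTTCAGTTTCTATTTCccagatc
Ifit1: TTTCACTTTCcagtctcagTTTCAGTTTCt
Isg15: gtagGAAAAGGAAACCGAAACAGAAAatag
Bst2: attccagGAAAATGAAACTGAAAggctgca
Gbp2 holds 1 copy of the core, from 59 to 50 bases before the start, and Gbp3 holds 2 that overlap, from 45 to 30 bases before it. Isg15 holds 3 between 78 and 57 bases before the start. Further windows with the core were those of Ifit3, Oas1a, Oas3, Ifih1, Eif2ak2, Stat2, Rsad2 and B2m. Of the 6 members that passed the test described next, Gbp2 and Eif2ak2 held the core, in Eif2ak2 after the start. No match was found in the windows of Ifit2 and Ifi44. Usp18 and Parp14 had no matched window and were not searched.

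After YAP siRNA the members moved in both directions. In limma with replicates blocked by number, 4 of the 30 tested members were called higher (Gbp2, Ifit2, Parp14 and Eif2ak2) and 2 lower (Usp18 and Ifi44) at an adjusted p under 0.05 (Benjamini-Hochberg over all tested genes). The background in the same fit was 8.32% of all tested genes higher and 8.96% lower, so that 4 and 2 of 30 lie near the share over all genes. Without the block limma called 0 members in either direction, as it did among all genes (0%), and 1 member, Ifit2, was at an unadjusted p under 0.05 against 12.2% of all genes. Also without the block, edgeR called 0 members and DESeq2 called Ifit2 alone. The median log2 fold change of the members was 0.12, where the median over all tested genes was 0.0094. The log2 fold changes of limma are on the log2(value + 1) scale unless another pseudocount is named, which understates the change of low genes. In the blocked fit without a mean-variance trend no member passed, and neither did Yap1, the siRNA target (adjusted p = 0.0604 in that limma fit). The share of all genes called is not given for this fit or for unblocked edgeR and DESeq2, so these counts have no background beside them. With replicate 1 of both groups left out, 7 members were called higher and 9 lower with the block, against 22% and 21.7% of all genes, with p-values that rest on variances borrowed from other genes. Without replicate 2 the blocked fit called 1 member higher (Gbp2) and 0 lower, against 0.959% and 1.38% of all genes. Without replicate 3 it called 3 higher (Gbp2, Ifit2 and Xaf1) and 0 lower, against 4.2% and 4.6%. Gbp2 alone kept its call whichever of the 3 replicate numbers was left out.

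**Figure D2:**
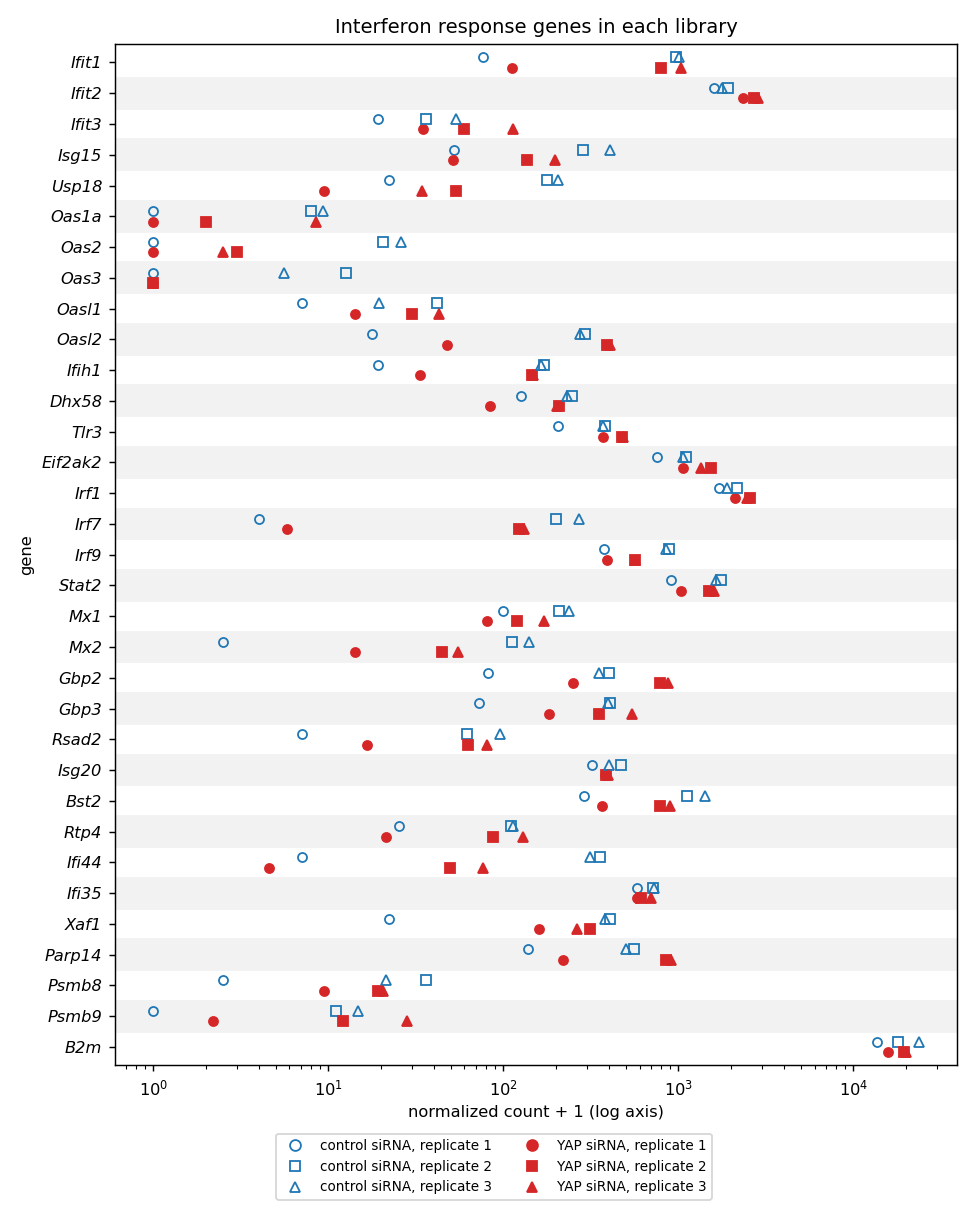
Normalized counts plus 1 (log axis) of the 33 interferon response genes in each of the 6 libraries, with control siRNA as open and YAP siRNA as filled symbols and the replicate number as the shape. The circles of replicate 1 lie at the left of most rows in both groups, and the groups overlap for every tested gene but Ifit2.

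The IFIT genes encode tetratricopeptide-repeat proteins that bind viral RNA and hinder its translation. Ifit2 had 1593, 1932 and 1769.8 normalized counts in control replicates 1, 2 and 3 and 2351, 2696 and 2849.8 after YAP siRNA. All 3 YAP siRNA libraries lay above all 3 controls, which was so for no other tested member, while the groups did not overlap for 19% of all tested genes. Ifit2 rose with a log2 fold change of 0.58 (SE 0.0959, adjusted p = 0.00717 in blocked and 0.224 in unblocked limma). It missed the threshold without replicate 2 (blocked limma adjusted p = 0.0698).

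Ifit3, a partner of the IFIT complex, had 18.2, 35.1 and 53.0 normalized counts in the controls and 33.7, 58.5 and 113 after YAP siRNA. Each YAP siRNA library was above the control of its number, and the groups overlapped. Its log2 fold change of 0.88 did not pass (SE 0.310, blocked limma adjusted p = 0.0834). Ifit3 shares 61.8% of its 31-base stretches with other annotated genes, Ifit3b first among them, so its reads may be split between copies. Ifit1, which binds RNA with a viral type of 5′ end, had 75.9, 967 and 1010.0 normalized counts in the controls and 112, 794 and 1041 after YAP siRNA. Here the difference between replicate 1 and the others exceeded any difference between the siRNAs (log2 fold change 0.10, 95% interval −0.31 to 0.51, blocked limma adjusted p = 0.721).

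ISG15 is a ubiquitin-like protein that is attached to other proteins after interferon, and Usp18 encodes the protease that removes it and that also damps signalling at the type I receptor. Usp18 had 21.2, 178 and 205 normalized counts in the controls and 8.41, 52.5 and 33.2 after YAP siRNA. Each YAP siRNA library was below the control of its number, and YAP siRNA replicates 2 and 3 were still above control replicate 1. Usp18 fell by 1.86 on the log2 scale (SE 0.353, adjusted p = 0.0112 in blocked and 0.545 in unblocked limma). The call was lost without replicate 2 or replicate 3 (blocked limma adjusted p = 0.111 and 0.0644), and without replicate 1 the log2 fold change was −2.17.

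Isg15 had 51.6, 286 and 406 normalized counts in the controls and 50.5, 136 and 197 after YAP siRNA. In pair 1 the libraries were nearly level, and in pairs 2 and 3 the YAP siRNA library was lower. The log2 fold change of −0.71 did not pass (SE 0.257, blocked limma adjusted p = 0.0899), but it did in the blocked fits of edgeR (adjusted p = 0.0378) and DESeq2 (adjusted p = 0.0369) on recovered reads. Of the enzymes that attach ISG15, Ube2l6, the conjugating enzyme, rose with a log2 fold change of 0.93 and Uba7, the activating enzyme, with one of 0.94, and both lost their calls without replicate 2, as given below with the other pathway genes. The ligase gene Herc6, named after its values were seen, did not pass (log2 fold change 0.34, blocked limma adjusted p = 0.113).

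The OAS genes encode enzymes that sense double-stranded RNA and make a messenger that activates RNase L, and OASL proteins are their relatives. Oas1a, Oas2 and Oas3 were at 0 in replicate 1 of both groups and low elsewhere, and were not tested. Oas2 had 19.5 and 24.9 normalized counts in control replicates 2 and 3 and 2.02 and 1.51 in YAP siRNA replicates 2 and 3. The ratio in pair 2 was 0.104 (25 reads against 2, exact 95% interval 0.0119 to 0.415) and in pair 3 0.0606 (54 reads against 1, interval 0.00151 to 0.352). Such intervals cover counting error only. Oas3 had 15 and 10 reads in control replicates 2 and 3 and 0 reads in each YAP siRNA library, with libraries of unequal depth. The exact 95% interval of its ratio was 0 to 0.361 in pair 2 and 0 to 1.46 in pair 3, so that of pair 3 includes 1. Oas1a was between 0 and 8.29 normalized counts in the controls and between 0 and 7.54 after YAP siRNA. Oas1a shares 68.8% of its 31-base stretches with other genes, Oas1g first.

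Oasl2 had 16.7, 293 and 273 normalized counts in the controls and 46.9, 392 and 408 after YAP siRNA. It was higher in all 3 pairs, in contrast to Oas2, but did not pass (log2 fold change 0.81, SE 0.248, blocked limma adjusted p = 0.0563). Oasl1, a translational repressor of Irf7, had 6.07, 40.5 and 18.4 in the controls and 13.2, 29.3 and 42.2 after YAP siRNA, lower in pair 2 and higher in pairs 1 and 3 (blocked limma adjusted p = 0.442).

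Among the RNA sensors, Eif2ak2 encodes PKR, the kinase that halts translation when it binds double-stranded RNA. Eif2ak2 had 753, 1099 and 1064 normalized counts in the controls and 1061, 1533 and 1346 after YAP siRNA. Each pair showed a higher value after YAP siRNA, and the groups overlapped only in that YAP siRNA replicate 1 lay under control replicates 2 and 3. Eif2ak2 rose with a log2 fold change of 0.44 (SE 0.107, adjusted p = 0.0276 in blocked and 0.501 in unblocked limma), and lost the call without replicate 2 or replicate 3 (blocked limma adjusted p = 0.261 and 0.0637).

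Tlr3, the endosomal receptor for double-stranded RNA, had 203, 379.6 and 369 normalized counts in the controls and 368, 475 and 481 after YAP siRNA. It was higher in each pair and did not pass (log2 fold change 0.52, SE 0.165, blocked limma adjusted p = 0.0627). Ifih1, which encodes the cytosolic sensor MDA5, had 18.2, 171 and 163 in the controls and 32.5, 145 and 146 after YAP siRNA, so that only pair 1 was higher. Dhx58, which encodes the related regulator LGP2, had 124, 247 and 230.4 in the controls and 82.9, 207 and 200.4 after YAP siRNA, lower in all 3 pairs. Neither passed (blocked limma adjusted p = 0.772 for Ifih1 and 0.245 for Dhx58).

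None of the 4 transcription factor genes of the list passed. Irf1, an activator that interferon-gamma induces strongly, had 1698, 2174 and 1899 normalized counts in the controls and 2116, 2573 and 2476 after YAP siRNA. It was higher in each pair and lay just outside the threshold (log2 fold change 0.31, SE 0.0935, blocked limma adjusted p = 0.0516). Irf1 crossed it in blocked edgeR (adjusted p = 0.0498) and in blocked limma with one total per library (0.0392), quantile normalization (0.0454), TMM factors (0.0492) or a mean of at least 50 (0.0489). It did not cross in blocked DESeq2 (0.0602), in limma without a variance trend (0.150), without replicate 2 (0.285) or without replicate 3 (0.276). Irf9, the DNA-binding subunit of the complex with STAT2, had 373, 881 and 855 in the controls and 389, 567 and 564 after YAP siRNA. Its pair 1 was nearly level, and pairs 2 and 3 were lower (log2 fold change −0.39, blocked limma adjusted p = 0.135, and −0.62 without replicate 1).

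Irf7, the factor that amplifies type I interferon production, had 3.03, 200.3 and 270.5 normalized counts in the controls and 4.81, 122 and 129.6 after YAP siRNA. Replicate 1 rested on 2 and 4 reads, and the ratio of YAP siRNA to control was 0.61 in pair 2 (exact 95% interval 0.487 to 0.759) and 0.479 in pair 3 (interval 0.378 to 0.602). Over all pairs it did not pass (log2 fold change −0.41, SE 0.371, blocked limma adjusted p = 0.468). Stat2, the signal transducer that binds IRF9, had 904, 1749 and 1631 in the controls and 1039, 1487 and 1606 after YAP siRNA (log2 fold change −0.02, 95% interval −0.29 to 0.25, blocked limma adjusted p = 0.924). Scaled to one total per library, its fold change was above 0.

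The GTPases gave the largest rise among the members. Gbp2, a guanylate-binding protein that attacks the membranes around intracellular microbes, had 80.4, 399.9 and 352 normalized counts in the controls and 250.04, 783 and 868 after YAP siRNA. Each YAP siRNA library was above the control of its number, but YAP siRNA replicate 1 lay below control replicates 2 and 3. The ratio was 3.11 in pair 1 (exact 95% interval 2.29 to 4.29), 1.96 in pair 2 (interval 1.75 to 2.19) and 2.47 in pair 3 (interval 2.21 to 2.75). Gbp2 rose with a log2 fold change of 1.30 (SE 0.172, adjusted p = 0.00328 in blocked and 0.562 in unblocked limma). Its adjusted p with the block was 0.0181 without replicate 2 and 4.3e-04 without replicate 3.

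Gbp3, of the same family, had 71.3, 406 and 396 normalized counts in the controls and 180.3, 352 and 546 after YAP siRNA, lower in pair 2 alone (log2 fold change 0.53, SE 0.267, blocked limma adjusted p = 0.199). The dynamin-like GTPases Mx1 and Mx2, which block viruses early in infection, did not pass either. Mx1 had 98.6, 206 and 238 in the controls and 79.3, 118 and 170.3 after YAP siRNA, lower in each pair but not past the threshold (log2 fold change −0.53, SE 0.210, blocked limma adjusted p = 0.115). Mx2 had 1.52, 111 and 139.6 in the controls and 13.2, 43.4 and 54.3 after YAP siRNA. The value of Mx2 in control replicate 1 was 1 read against 11 after YAP siRNA, while the ratio was 0.389 in pair 2 and in pair 3. With all pairs the log2 fold change of Mx2 was −0.06 (SE 0.711) and without replicate 1 it was −1.34. Mx1 and Mx2 share 8.12% and 7.96% of their 31-base stretches with other genes.

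Among the other effectors, Parp14, an ADP-ribosyltransferase, had 138, 557 and 499 normalized counts in the controls and 219, 853 and 910.2 after YAP siRNA. It was higher in each pair, with YAP siRNA replicate 1 below control replicates 2 and 3. Parp14 rose with a log2 fold change of 0.71 (SE 0.141, adjusted p = 0.0130 in blocked and 0.798 in unblocked limma) and lost the call without replicate 2 or replicate 3 (blocked limma adjusted p = 0.120 and 0.0852).

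Ifi44, a cytosolic protein with reported antiviral effects, had 6.07, 355 and 314 normalized counts in the controls and 3.61, 48.4 and 75.4 after YAP siRNA. Replicate 1 held 4 reads in the control and 3 after YAP siRNA, and in pairs 2 and 3 the groups were far apart. The ratio was 0.136 in pair 2 (exact 95% interval 0.0990 to 0.184) and 0.240 in pair 3 (interval 0.176 to 0.320). Ifi44 fell by 1.84 on the log2 scale (SE 0.434, adjusted p = 0.0245 in blocked and 0.773 in unblocked limma), and by 2.45 without replicate 1. The call was lost without replicate 2 or replicate 3 (blocked limma adjusted p = 0.295 and 0.0675).

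Xaf1, a pro-apoptotic zinc finger protein, went opposite ways in different pairs. It had 21.2, 405 and 379 normalized counts in the controls and 159.9, 311 and 262 after YAP siRNA. The ratio was 7.53 in pair 1 (14 reads against 133, exact 95% interval 4.33 to 14.1), 0.768 in pair 2 (interval 0.665 to 0.886) and 0.691 in pair 3 (interval 0.584 to 0.815). Over all pairs the log2 fold change was 0.65 (blocked limma adjusted p = 0.454), and without replicate 1 it was −0.45 (blocked limma adjusted p = 0.0229). Without replicate 3 Xaf1 passed as higher instead (blocked limma adjusted p = 0.0431).

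Bst2, which encodes tetherin, the protein that holds budding viruses at the cell surface, had 289.8, 1115 and 1424 normalized counts in the controls and 365, 788 and 898 after YAP siRNA. Pair 1 was higher by a ratio of 1.26 (exact 95% interval 1.05 to 1.52), and pairs 2 and 3 were lower, at 0.707 (interval 0.647 to 0.771) and 0.631 (interval 0.577 to 0.689). Rsad2, which encodes viperin, had 6.07, 60.8 and 94.5 in the controls and 15.6, 61.6 and 79.9 after YAP siRNA. Rtp4, a chaperone of membrane receptors that shares 12.5% of its 31-base stretches with other genes, had 24.3, 109 and 112 in the controls and 20.4, 86.8 and 128 after YAP siRNA. None of these 3 passed (blocked limma adjusted p = 0.341 for Bst2, 0.582 for Rsad2 and 0.782 for Rtp4).

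The exonuclease gene Isg20 and Ifi35, which encodes a partner of NMI, varied least between libraries among the effectors. Isg20 ranged from 319 to 468 normalized counts in the controls and from 379 to 398 after YAP siRNA (log2 fold change −0.01, 95% interval −0.38 to 0.35). Ifi35 ranged from 583 to 722 and from 583 to 693 (log2 fold change −0.10, 95% interval −0.39 to 0.19).

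Psmb8 and Psmb9 encode catalytic subunits of the immunoproteasome, which makes peptides for MHC class I, and B2m encodes the light chain of MHC class I. Psmb8 had 1.52, 35.1 and 20.3 normalized counts in the controls and 8.41, 18.2 and 19.6 after YAP siRNA, and Psmb9 had 0, 10.1 and 13.8 and then 1.20, 11.1 and 27.1. Neither passed (blocked limma adjusted p = 0.765 and 0.487). B2m had 13569, 17986 and 23756 in the controls and 15725, 19563 and 19917 after YAP siRNA. The groups of B2m overlapped, and its log2 fold change was 0.03 (95% interval −0.21 to 0.27, blocked limma adjusted p = 0.881).

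**Figure D3:**
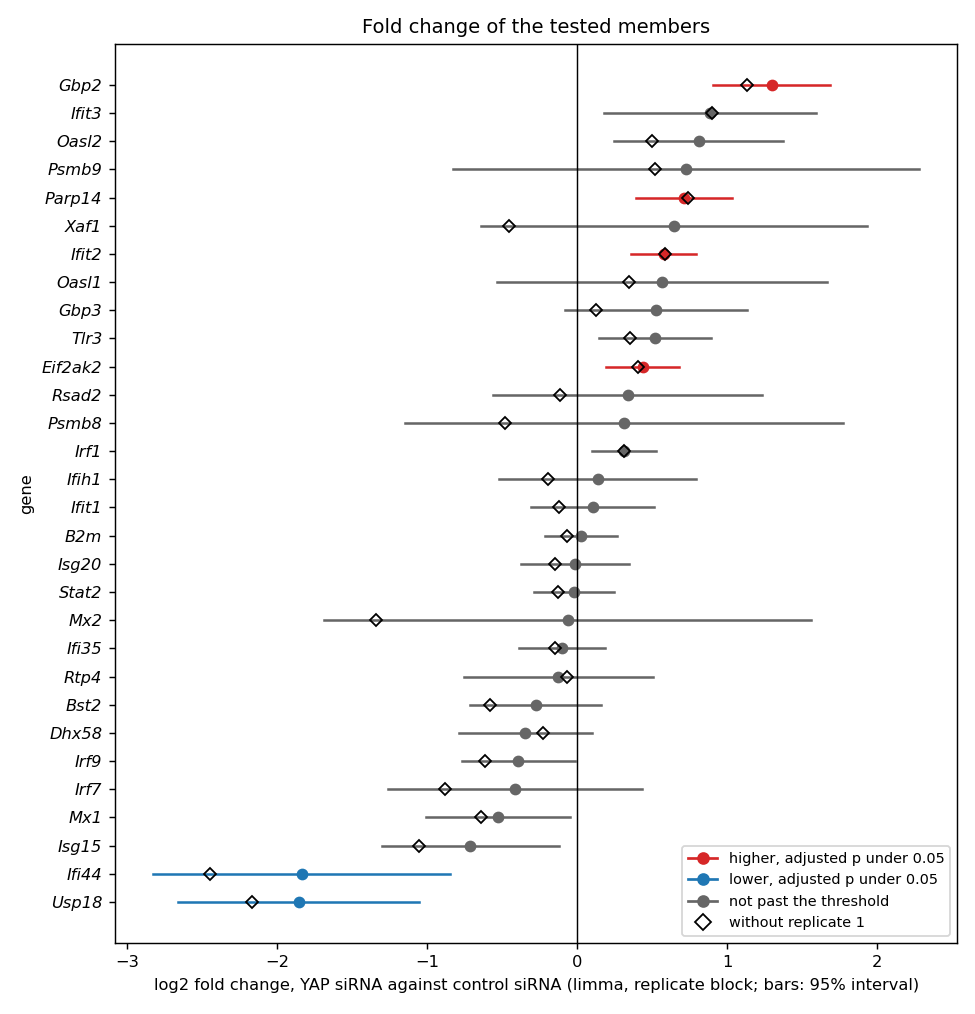
Log2 fold change of YAP siRNA against control siRNA for the 30 tested members in the blocked limma fit, with 95% intervals; colour marks an adjusted p under 0.05. Gbp2, Ifit2, Parp14 and Eif2ak2 lie above 0 and Usp18 and Ifi44 below, and the interval of Mx2 is the widest.

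The pairs of equal replicate number did not give one direction. In pair 1, 24 of the 30 tested members were higher after YAP siRNA (80%, against 50.1% of all tested genes). In pair 2 there were 11 (36.7%, against 51.6%) and in pair 3 there were 13 (43.3%, against 48.6%). The median log2 difference of the members was 0.54 in pair 1, −0.25 in pair 2 and −0.03 in pair 3. In all, 10 members, or 33.3%, were higher in pair 1 and lower in both other pairs, where the share over all tested genes was 11.8%. These 10 were Ifih1, Irf7, Irf9, Stat2, Mx2, Isg20, Bst2, Ifi35, Xaf1 and Psmb8. Only for Mx2, Bst2 and Xaf1 did the exact 95% intervals, which cover counting error only, exclude a ratio of 1 in every pair. For the others the sign was not settled in at least 1 pair. The ratio in pair 1 was 1.00 for Ifi35 and 1.04 for Irf9, and Irf7 had 2 reads against 4 there. In pair 3 it was 0.995 for Isg20, 0.985 for Stat2 and 0.966 for Psmb8. Pairs 2 and 3 had the same direction for 24 members, or 80%, close to the 78.2% of all genes.

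Some members had one direction in all pairs. Higher in every pair were 9 members (30%, against 27.4% of all tested genes), namely Ifit2, Ifit3, Oasl2, Tlr3, Eif2ak2, Irf1, Gbp2, Parp14 and Psmb9. Lower in every pair were 5 (16.7%, against 27.1%), namely Isg15, Usp18, Dhx58, Mx1 and Ifi44. Some of these signs rest on few reads or on a ratio near 1. From control to YAP siRNA, Psmb9 had 0 reads against 1 in pair 1 and 13 against 11 in pair 2. Ifi44 had 4 reads against 3 in pair 1, and the pair 1 ratio of Isg15 was 0.979 (exact 95% interval 0.608 to 1.59). The shares are descriptions and were not tested.

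**Figure D4:**
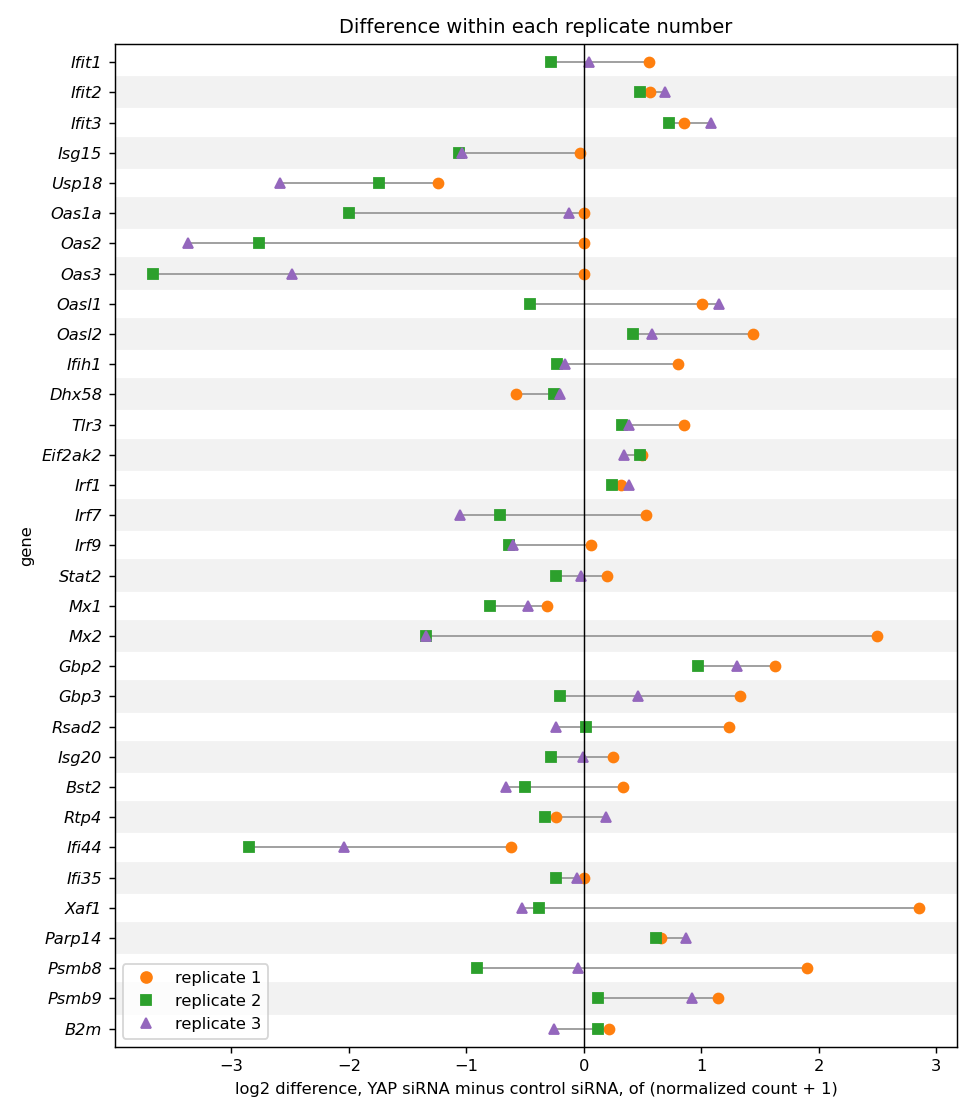
Log2 difference of YAP siRNA minus control for each member within replicate pairs 1, 2 and 3, with the untested Oas1a, Oas2 and Oas3 included. Points of pair 1 lie above those of pairs 2 and 3 for many members, Xaf1 and Mx2 among them, and for 10 members pair 1 is above 0 while both others are below.

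With replicate 1 left out, the 2 remaining libraries of each group did not overlap for 23 members, 8 higher and 15 lower, against 66.3% of all tested genes (33% higher and 33.3% lower). In that blocked fit the members called lower were Bst2, Ifi44, Irf7, Irf9, Isg15, Mx1, Mx2, Usp18 and Xaf1. Those called higher were Eif2ak2, Gbp2, Ifit2, Ifit3, Irf1, Oasl2 and Parp14. Without replicate 2 the groups did not overlap for 2 members, Ifit2 and Irf1, against 27.2% of all genes, and without replicate 3 for Ifit2 alone, against 26.4%. With replicate 1 and the block both left out, limma called 6 higher and 7 lower, against 15.3% and 16.7% of all genes. The median log2 fold change of the members was then −0.12, below 0, where with all pairs it was above.

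The rest of the pathway was followed in lists of 144 further symbols, of which 136 were in the table and 102 were tested. With the block, limma called 15 of them higher and 7 lower, where 8.32% and 8.96% of all tested genes were. The genes of the interferons themselves were scarcely read: 18 were found in the data, 15 of these were at 0 in all libraries, and none reached the level for testing. Among receptors and JAK kinases, 1 of 9 was higher and 0 were lower. It was Ifngr1, a receptor chain for interferon-gamma, with a control mean of 3078 ± 250.5 normalized counts and a mean of 4244 ± 503 after YAP siRNA (SD, n = 3 libraries each; log2 fold change 0.46, adjusted p = 0.0116 in blocked and 0.281 in unblocked limma). It did not pass without replicate 2 (blocked limma adjusted p = 0.155).

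Among genes of nucleic acid sensing and induction, 0 of 16 were higher and 1 was lower. Tlr7, the endosomal receptor for single-stranded RNA, fell, with mean normalized counts of 105 ± 15.7 and then 43.8 ± 14.3 (SD over 3 libraries each; log2 fold change −1.28, adjusted p = 0.0178 in blocked and 0.250 in unblocked limma). Negative regulators gave 1 higher and 2 lower of 11. Socs1, the feedback inhibitor of JAK kinases, had 200.3, 279 and 431 normalized counts in the controls and 123, 122 and 155 after YAP siRNA, with no overlap. It fell by 1.12 on the log2 scale (SE 0.207, blocked limma adjusted p = 0.0103). Pias4, a SUMO ligase, fell by 0.53 and Irf2, which competes with Irf1 for DNA, rose with a log2 fold change of 0.48. None of these 4 passed without replicate 2 (blocked limma adjusted p = 0.173 for Tlr7, 0.0914 for Socs1, 0.120 for Pias4 and 0.205 for Irf2), and Pias4 and Irf2 also missed the threshold without replicate 3 (0.0724 and 0.223).

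MHC class I presentation gave 2 higher and 0 lower of 16. Tap2, a subunit of the peptide transporter, rose, with mean normalized counts of 53.3 ± 17.3 and then 125 ± 46.9 (SD over 3 libraries each; log2 fold change 1.19, adjusted p = 0.0159 in blocked and 0.348 in unblocked limma). Erap1, the peptidase that trims those peptides, rose with a log2 fold change of 0.62. Neither Tap2 nor Erap1 passed without replicate 2 (blocked limma adjusted p = 0.178 and 0.112) or without replicate 3 (0.0535 and 0.0679). The list of other interferon-induced genes gave 11 higher and 4 lower of 50. The 3 with the smallest p were Irgm1, Ube2l6 and Cxcl10. Cxcl10, a chemokine that draws T cells, had 288, 1299 and 1456 normalized counts in the controls and 1148, 2468 and 2844 after YAP siRNA, higher in each pair and lowest in replicate 1 of both groups. It rose with a log2 fold change of 1.29 (SE 0.197, adjusted p = 0.00543 in blocked and 0.522 in unblocked limma).

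Ube2l6 had 592, 547 and 649.7 normalized counts in the controls and 922, 1179 and 1346 after YAP siRNA. The groups of Ube2l6 did not overlap, and control replicate 1 was not the lowest (log2 fold change 0.93, SE 0.133, adjusted p = 0.00434 in blocked and 0.174 in unblocked limma). Irgm1, an immunity-related GTPase, rose with a log2 fold change of 0.64 (blocked limma adjusted p = 0.00419). Uba7 was named after its values were seen, because it acts with Ube2l6 and Isg15 (blocked limma adjusted p = 0.0165). Without replicate 2 the values were 0.0411 for Irgm1, 0.0146 for Cxcl10, 0.0542 for Ube2l6 and 0.0970 for Uba7, so that Ube2l6 and Uba7 lost their calls, and Uba7 also lost it without replicate 3 (blocked limma adjusted p = 0.107).

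**Figure D5:**
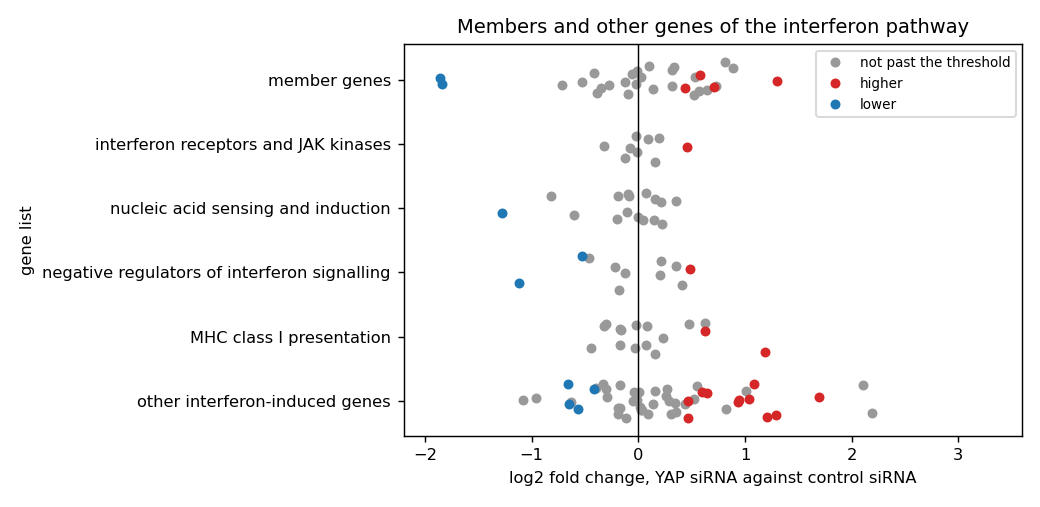
Log2 fold change of YAP siRNA against control siRNA in the blocked limma fit for the tested interferon response genes and for the lists of other pathway genes, 1 point a gene, coloured where the adjusted p was under 0.05. Higher and lower calls occur among the members (4 and 2) and among the other interferon-induced genes (11 and 4).

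The cell type was checked against its markers. Beside the counts of called markers below, blocked limma called 8.32% of all tested genes higher and 8.96% lower. Sox10 and S100b, which define Schwann cells, were at most 15.6 and 18.7 normalized counts in any library, while Ngfr, Pmp22, Mbp and Egr2, further genes of the Schwann list, were read in all 6. Of 8 tested genes of the Schwann list, 2 were called higher, Pmp22 and Erbb3 (log2 fold changes 1.00 and 1.12, blocked limma adjusted p = 0.00121 and 0.0261), and 1 lower, Ngfr (−0.80, adjusted p = 0.00721 in the same fit). Erbb3 lost its call without replicate 2 or replicate 3 (blocked limma adjusted p = 0.174 and 0.127), and Ngfr without replicate 2 (0.0723). Of the leukocyte markers, Cd14 and Tyrobp were at 0 in all libraries, and of 5 tested 0 were called higher and 1 lower. That gene, Csf1r, had 119.9, 168 and 196 normalized counts in the controls and 81.7, 62.6 and 84.4 after YAP siRNA, with no overlap, and fell by 1.05 on the log2 scale (blocked limma adjusted p = 0.0253). Its call was lost without replicate 2 or replicate 3 (blocked limma adjusted p = 0.229 and 0.0888). Lyz2 was higher in all 3 pairs and did not pass (log2 fold change 1.85, blocked limma adjusted p = 0.0873). Ptprc, the pan-leukocyte marker, had 0, 28.8 and 11.1 normalized counts in the controls and 6.01, 29.3 and 13.6 after YAP siRNA, lowest in replicate 1 like the members. Cd68, a lysosomal protein of macrophages also found in other cells, did not share that order: it had 164, 109.9 and 114 in the controls and 124, 101 and 154 after YAP siRNA. The summed fibroblast markers were 246480 in control replicate 1 against 485524 and 524557 in the others, and 201788 in YAP siRNA replicate 1 against 392845 and 382380. This sum was thus also lowest in replicate 1. Of 6 tested fibroblast markers 1 was called higher, Postn (log2 fold change 0.40, blocked limma adjusted p = 0.0249), and 2 lower, Dcn and Col1a1 (−0.99 and −0.46, adjusted p = 0.0361 and 0.0260 in the same fit). None of these 3 passed without replicate 2 (blocked limma adjusted p = 0.162, 0.243 and 0.191), and Dcn and Col1a1 did not without replicate 3 (0.113 and 0.195). The part of these marker changes in the members' levels was not tested.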

How the data were processed

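Poly(A) RNA from SC4 cells, 3 libraries with control siRNA and 3 with pooled YAP siRNA, was sequenced as paired ends. Per the submitters' processing notes, the tools were DESeq 1.14.0, HTSeq 0.6.1 and TopHat2 2.0.9, and the build was mm9 of the mouse. Not given in the sources used here are the annotation, strand setting and filters, and the treatment of reads shared between paralogues. The authors deposited normalized gene counts, a signal unit in which each library's reads are divided by its size factor. All values above 0 were whole multiples, within 0.01 reads, of what 1 read is worth, so read counts were recovered. Within a group, every pair of libraries differed by more than sampling noise.

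After adding 1 and taking log2, values were tested in R 4.3.3 with limma 3.58.1 (mean-variance trend, two-sided, Benjamini-Hochberg over all 12820 genes with a mean of at least 10), without a covariate and with replicate number as a blocking factor. The groups share replicate numbers. Deviations from the group means correlated at 0.788, 0.705 and 0.532 across genes for replicates 1, 2 and 3 of both groups, all above 0.1, so libraries were paired by number. This comes from the data and not from a label, and shows mainly the shared deviation of replicate 1. Replicates 2 and 3 correlated across numbers too. The value was 0.552 for control replicate 2 with YAP siRNA replicate 3, and 0.516 for control replicate 3 with YAP siRNA replicate 2. These correlations therefore cannot decide how replicates 2 and 3 pair, and results by pair 2 or 3 rest on the numbers in the titles. The words rose and fell are used only of genes that passed with the block. An exact permutation test of 3 against 3 libraries without pairing cannot go below p = 0.1, and one that permutes within pairs has a higher floor.

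The members and lists were chosen with earlier results of these data known. The text names every member, up to 3 passing genes per pathway list by smallest p, and Yap1, Sox10, S100b, Ptprc and Cd68. Other marker genes were named after their values were seen. Alternatives were pseudocounts of 0.5 and 10, filters, scalings, no trend, recovered reads tested with DESeq2 1.42.0 and edgeR 4.0.16, and leaving out libraries. The procedure was tested on simulated counts. Promoter windows are from the RefSeq table of GRCm38.p6, another build than that of the files, which hold no coordinates. Shared 31-base stretches were counted in GENCODE transcripts. Items of the lists that are not reported here were left out of them.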

Additional observations from a re-analysis of the deposited data

How the results depend on the processing

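Calls of members depended on the pairing. The counts of 4 higher and 2 lower with the replicate block were 0 and 0 without it, and 0 and 0 with the block but no variance trend. The other pathway genes went from 15 higher and 7 lower to 0 and 0 in both cases. Yap1, the siRNA target, did not pass in either fit (adjusted p = 0.118 in unblocked limma and 0.0604 in blocked limma without the trend). Leaving out a replicate number with the block gave 1 to 7 members higher, 0 to 9 lower, and 2 to 26 other pathway genes higher (8 without replicate 3) and 0 to 17 lower (4 without replicate 3), the highest each time without replicate 1. Without the block, DESeq2 called 1 member higher, and leaving out replicate numbers of both groups, added after the data were seen, gave 0 to 6 higher and 0 to 7 lower. The members whose groups did not overlap numbered 1 to 23 when a replicate number was left out. The core motif was in 13 member promoters and its longer form in 6.

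Signs turned for some members that had not passed, Xaf1 with the largest fold change among them. With the block, Ifih1 was at −0.00032 and Psmb8 at −0.14 in edgeR, Psmb8 at −0.011 with a pseudocount of 10, Mx2 at 0.020 with one of 0.5, and Stat2 at 0.0085 and Isg20 at 0.014 when scaled to one total. Leaving out replicate numbers turned the sign of Ifit1 (−0.12), Ifih1 (−0.19), Rsad2 (−0.11), Xaf1 (−0.45) and Psmb8 (−0.48) without replicate 1, of Stat2 (0.089), Isg20 (0.12), and Mx2 (0.58) without replicate 2, of Mx2 (0.58) without replicate 3, and of B2m without replicate 1 (−0.067) and replicate 2 (−0.021). The cause was not tested. No scaling moved the median of all genes by more than 0.037 on the log2 scale. Depth limits the OAS genes, the immunoproteasome genes, and Irf7, Mx2 and Ifi44 in replicate 1, where single reads decide the value.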
